A study of Mus musculus with 24 samples.

Results

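The acetaminophen response of cultured primary mouse hepatocytes was described here from microRNA (miRNA) hairpin counts. Small RNA had been sequenced from 24 samples of serum exosomes, hepatocyte exosomes, hepatocytes and liver. The deposited tables hold 12 columns, 1 per condition, and each column combines 2 libraries, from an Ion Torrent PGM and an Ion Torrent Proton run. One hepatocyte column came from cells given 20 mM acetaminophen and the other from untreated control cells. A further hepatocyte column, with 20 mM acetaminophen and 1 µg/ml granulocyte colony-stimulating factor (G-CSF), and the liver columns, from mice given 500 mg/kg acetaminophen and from untreated mice, were set beside them. The labels do not say which mouse strain was used, how long cells or mice were exposed, or how many cultures or animals stand behind a column.

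The hairpins described were those with 100 or more counts in either hepatocyte column, which was 157 of 1186 in the table. They held 98.3% of the hairpin counts of the acetaminophen column and 99.4% of those of the control column. The acetaminophen column had 179751 hairpin counts and the control column 838624, 4.67 times as many. A minimum of 100 counts is thus a share of 0.0556% with acetaminophen and of 0.0119% in control. The minimum was passed in both columns by 95 hairpins, by 11 with acetaminophen alone and by 51 in control alone. Just inside the minimum lay mir-335, with 105 counts with acetaminophen and 40 in control, and mir-501, with 17 with acetaminophen and 104 in control. Just outside it lay mir-8110, with 91.2 counts with acetaminophen and 3 in control, and mir-532, with 14.5 with acetaminophen and 95 in control. The mature table, used as the check, held 5330 counts for acetaminophen and 26741 for control.

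A miRNA is cut from a hairpin-shaped precursor, and 1 arm of the hairpin is kept as the mature strand that guides Argonaute proteins to messenger RNAs. Bases 2 to 8 of the mature strand, the seed, do most of the target pairing, so miRNAs with the same seed form a family. Acetaminophen is turned by cytochrome P450 enzymes, chiefly CYP2E1, into a reactive quinone imine that uses up glutathione and damages mitochondria, and hepatocytes are the cells most exposed to it. Hepatocytes are known for very high miR-122, and freshly isolated hepatocytes placed in culture are known to lose part of their differentiated state with time.

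The mature strands of the most abundant families are shown because near-identical hairpins divide the same reads. Sequences are from RefSeq, build GRCm38.p6, in which 146 of the 157 hairpins had a mature strand by name, and capitals mark the seed. The miR-21 strands differ in their seeds, while the miR-19, the miR-103 and miR-107, the miR-30 and the miR-192 and miR-215 strands each share theirs within the family.
miR-21a-5p: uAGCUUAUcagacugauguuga
miR-21b: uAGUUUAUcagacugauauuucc
miR-3965: uGCUUAUCagccugauguu
miR-19a-3p: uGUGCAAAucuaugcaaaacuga
miR-19b-3p: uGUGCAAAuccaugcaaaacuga
miR-103-3p: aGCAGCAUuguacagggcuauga
miR-107-3p: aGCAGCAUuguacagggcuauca
miR-30c-5p: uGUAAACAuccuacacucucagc
miR-30a-5p: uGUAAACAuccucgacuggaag
miR-30e-5p: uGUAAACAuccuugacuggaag
miR-192-5p: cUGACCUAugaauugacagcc
miR-215-5p: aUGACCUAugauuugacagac
The mature strand of miR-21a lies at chr11:86584120-86584141 on the minus strand, in an exon of the protein-coding gene Vmp1 by the GENCODE annotation. That of miR-19b from the miR-17-92 locus lies at chr14:115044358-115044380 on the plus strand, in an exon of the long RNA Mir17hg, and that of miR-107 at chr19:34820700-34820722 on the minus strand, in an intron of Pank1.

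Against the control column, 42 hairpins had a higher share with acetaminophen, 60 a lower share, and 55 were not called. A hairpin was called when its share of the column total differed 2-fold or more and the exact 95% interval of the ratio excluded equality. In all 65% of the 157 were called, 26.8% higher and 38.2% lower. The interval covers counting error only, the reads carry no molecular identifiers, and with 1 column per condition there is no replicate error, so a call compares these libraries and not the conditions. The hairpins called higher took 57.4% of the acetaminophen counts and 6.69% of the control counts. Those called lower took 6.96% of the acetaminophen counts and 66.6% of the control counts. Among the 95 hairpins that passed the minimum in both columns, 62.1% were called, 29 higher (30.5%) and 30 lower (31.6%). All 11 that passed with acetaminophen alone were higher, and of the 51 that passed in control alone 30 were lower and 2 higher, a split that the minimum itself favours. When hairpins that share reads were summed to 103 read groups, 63.1% were called, 35 groups higher (34%) and 30 lower (29.1%).

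**Figure D1:**
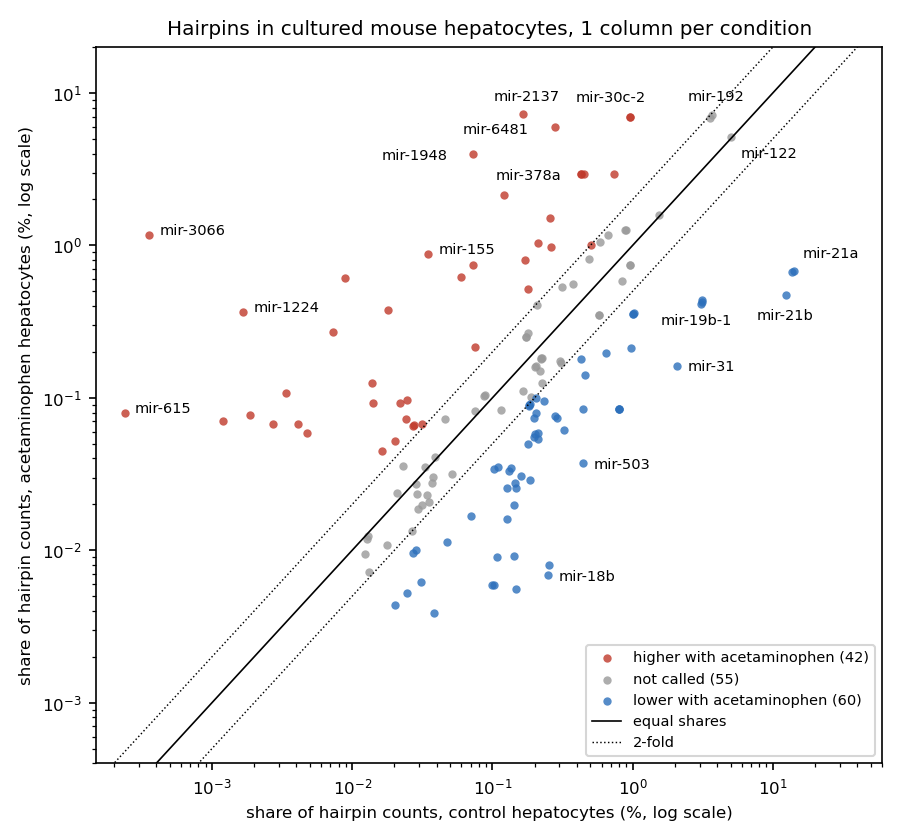
Share of hairpin counts with acetaminophen (y axis, %, log scale) against control (x axis, %, log scale) for the 157 hairpins with 100 or more counts in either column, coloured by call, with lines at equal shares and at 2-fold. The mir-21 hairpins lie far below the line at shares above 10% in control, and mir-3066, mir-1224 and mir-2137 far above it.

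The largest difference in percentage points was in the miR-21 reads. mir-21a is known as a growth- and injury-linked miRNA that represses Pdcd4. It had 1220.5 counts (0.679%) with acetaminophen and 119094 (14.2%) in control, a share 20.9-fold lower (95% interval 19.8 to 22.2). mir-21b had 848.5 counts (0.472%) with acetaminophen and 103809 (12.4%) in control, and mir-3965, whose strand resembles that of miR-21a, had 0.664% with acetaminophen and 13.7% in control. Summed over mir-21a, mir-21b, mir-21c, mir-3965 and mir-3967, the read group took 1.82% with acetaminophen and 40.4% in control, a share 22.2-fold lower (21.4 to 23.0). In the mature table miR-21a-5p had 58 counts with acetaminophen and 5536 in control, 19.0-fold lower, while miR-3965 had 0 mature counts in both columns. The 3 members of the miR-21 family measured were all called lower, with a median log2 share ratio of -4.71 against -0.41 over all 157 hairpins.

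Shares sum to a fixed total, so a read group of this size moves every other share. With the mir-21a read group left out of both totals, the log2 share ratios of all hairpins fell by 0.72, and the calls became 33 higher and 89 lower, so that 27.0% of calls were higher in place of 41.2%. The other scalings moved the median of all hairpins by -0.48 to 0.41 on the log2 scale and left 32.1% to 49.0% of calls higher. Each of the 5 other scalings shifts all log2 share ratios equally and by less than the 2-fold limit. No called hairpin could therefore change direction under them, while 29 of the 55 hairpins not called did. Of the 102 called hairpins 86 stayed at 2-fold or more under all 5, and 16 fell under it in at least 1, 9 of them higher and 7 lower. Among these were mir-29a, mir-342, mir-669e, mir-140, mir-92a-1 and mir-92a-2 of the higher hairpins and mir-203, let-7g and let-7i of the lower ones. Of the 55 hairpins not called, 38 reached 2-fold under at least 1 of the 5, among them the miR-24, miR-26 and miR-27 hairpins, let-7c-1, mir-221 and mir-210.

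**Figure D2:**
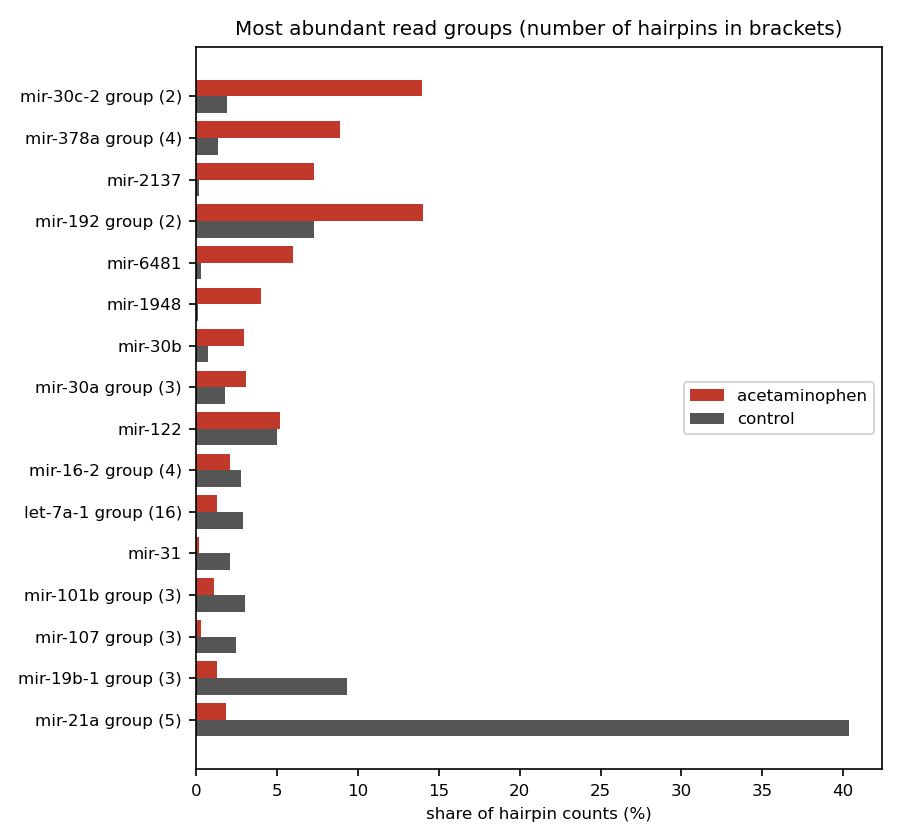
Share of hairpin counts (x axis, %) of the most abundant read groups, with acetaminophen above and control below in each pair, 1 bar per column and no replicates. The mir-21a group fills 40.4% of the control column and 1.82% of the acetaminophen column, and the mir-30c-2 group 13.9% with acetaminophen and 1.91% in control.

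The miR-17-92 cluster, a Myc-driven precursor known for supporting cell division, and its paralogues were mostly lower. Of 14 hairpins measured, 10 were lower, 2 higher and 2 not called, with a median log2 share ratio of -2.23, beside 38.2% lower, 26.8% higher and a median of -0.41 over all 157. The 14 hairpins form 6 read groups. Of the 10 lower, mir-18a, mir-18b, mir-20a, mir-20b, mir-106a and mir-106b passed the minimum in control alone, which itself favours a lower call. The miR-19 reads made up most of the counts of this list. mir-19a, mir-19b-1 and mir-19b-2 together took 1.28% with acetaminophen and 9.30% in control, a share 7.29-fold lower (6.99 to 7.60). mir-17 had 110 counts (0.0611%) with acetaminophen and 2727 (0.325%) in control. The lowest ratios of all 157 hairpins were those of mir-18b, with 12.3 counts with acetaminophen and 2103 in control, and mir-18a, with 14.3 with acetaminophen and 2117 in control, which share reads and together were 33.9-fold lower (23.0 to 50.9). The 2 called higher were mir-92a-1, with 0.0671% with acetaminophen and 0.0316% in control, and mir-92a-2, with 0.0666% with acetaminophen and 0.0276% in control, which share a mature strand and count as 1 signal. They belong to the same clusters as the lower hairpins. On chromosome 14 mir-17, mir-18a, mir-19a, mir-20a and mir-19b-1 were lower and mir-92a-1 higher, and the log2 share ratios ran from -4.98 to 1.09. On the X chromosome mir-19b-2, mir-20b, mir-18b and mir-106a were lower and mir-92a-2 higher, and the ratios ran from -5.19 to 1.27. Each of these X chromosome hairpins falls in a read group with hairpins of chromosome 14, so the 2 clusters are not separate signals. mir-363 of this list had 0 counts in both columns. The 2 miR-92a ratios were near the limit, 2.12-fold (1.70 to 2.65) and 2.41-fold (1.93 to 3.03), and both fell under 2-fold under 2 of the 5 other scalings, with lowest log2 values of 0.37 and 0.55, so the opposite calls within these clusters do not hold there.
miR-17-5p: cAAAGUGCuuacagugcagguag
miR-18b-5p: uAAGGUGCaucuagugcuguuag
The seeds of these strands, again in capitals, are not those of the miR-19 strands, so the lower reads came from several seed families of the cluster.

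Several hairpins of other lists were also lower. mir-31, an epithelial miRNA, had 288.5 counts (0.161%) with acetaminophen and 17449 (2.08%) in control, 13.0-fold lower (11.6 to 14.6). mir-503 lies beside mir-322 on the X chromosome and is known for slowing the cell cycle. It had 67 counts with acetaminophen and 3740 in control, 12.0-fold lower (9.40 to 15.5), and mir-322 had 30 with acetaminophen and 587 in control. The 3 hairpins of miR-103 and miR-107, which lie in introns of pantothenate kinase genes and are known to dampen insulin signalling, together took 0.254% with acetaminophen and 2.42% in control, 9.53-fold lower (8.68 to 10.5). Each of the 3 held exactly the same count, so they are 1 signal divided equally. mir-34a, a direct p53 target, had 0.0843% with acetaminophen and 0.445% in control, 5.27-fold lower (4.47 to 6.22). mir-210, the best-known hypoxia miRNA, had 0.0134% with acetaminophen and 0.0266% in control and was not called.
miR-31-5p: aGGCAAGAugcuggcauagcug
miR-503-5p: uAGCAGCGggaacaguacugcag
miR-34a-5p: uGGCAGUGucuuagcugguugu
miR-7b-5p: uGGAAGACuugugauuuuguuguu
The miR-7 strand is shown because its read group of 3 hairpins had among the lowest ratios, with 0.0209% with acetaminophen and 0.310% in control, 14.9-fold lower (10.7 to 20.8).

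All 6 hairpins of the miR-99/100 and miR-125 families, many of which are transcribed together with let-7 hairpins, were lower, with a median log2 share ratio of -2.35. They form 2 read groups, and all 6 passed the minimum in control alone, which itself favours a lower call. mir-99b had 16.5 counts with acetaminophen and 1191 in control, and mir-125b-2 had 50 with acetaminophen and 1216 in control. Of the let-7 family, the differentiation-linked miRNAs that repress Ras and Lin28, 7 of 11 measured hairpins were lower and 4 not called, with a median of -1.03, beside 38.2% lower and a median of -0.41 over all 157. let-7a-1 took 0.196% with acetaminophen and 0.644% in control. let-7b lay on the other side, with 0.0727% with acetaminophen and 0.0456% in control, and was not called. The let-7 read group, which also holds mir-1961 and mir-3962, took 1.27% with acetaminophen and 2.91% in control, 2.30-fold lower (2.20 to 2.40). Without these 2, the 14 let-7 family hairpins found took 1.17% with acetaminophen and 2.73% in control. The 3 miR-101 hairpins, known for targeting Ezh2, together took 1.07% with acetaminophen and 3.03% in control, while the 3 miR-26 hairpins were not called. Both miR-23 hairpins were lower, at 0.0734% with acetaminophen and 0.291% in control for mir-23b, and the 4 miR-24 and miR-27 hairpins of the same clusters were not called. mir-222, a repressor of Cdkn1b, had 0.0540% with acetaminophen and 0.213% in control and was lower, and its neighbour mir-221, with 0.0829% with acetaminophen and 0.116% in control, was not called.

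Among the higher hairpins, the miR-30 reads were the most abundant. The miR-30 family is abundant in many epithelial and mesenchymal tissues. mir-30c-1 and mir-30c-2, which give the same mature strand, together took 13.9% with acetaminophen and 1.91% in control, a share 7.30-fold higher (7.16 to 7.45). mir-30b took 2.93% with acetaminophen and 0.742% in control, 3.95-fold higher (3.81 to 4.10). mir-30a, mir-30d and mir-30e, whose strands have the same seed as miR-30c-5p, had ratios below the limit and were not called, at 1.17% with acetaminophen and 0.665% in control for mir-30a. Of 6 hairpins measured 3 were thus higher and 0 lower, beside 26.8% higher over all 157. Their median log2 share ratio was 1.42, beside -0.41 over all 157, and the 6 form 3 read groups. Within 1 genomic cluster mir-30c-1 had a log2 share ratio of 2.87 and mir-30e one of 0.74.

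mir-378a, a hairpin of the Ppargc1b locus known for its part in energy metabolism, and its copies mir-378b, mir-378c and mir-378d took 8.87% with acetaminophen and 1.32% in control, 6.72-fold higher (6.56 to 6.88). The list of metabolic regulators thus held 3 higher and 3 lower hairpins, which fall into 2 read groups, miR-378 and miR-103/107. Its median of -0.26 turned to 0.14 with median-of-ratios scaling. mir-130a and mir-130c, both members of the miR-130 and miR-301 family that reached the minimum, were higher. mir-130a had 1.03% with acetaminophen and 0.211% in control, 4.89-fold higher (4.58 to 5.23). In the miR-29 family, known for repressing collagen genes, mir-29a was higher, with 0.518% with acetaminophen and 0.179% in control, and mir-29b-2 lower, with 0.0732% with acetaminophen and 0.197% in control. mir-29b-1 and mir-29c were not called, and the median of the 4, 0.01, changed sign with the scaling.

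mir-155 is processed from the Mir155hg transcript and is induced by inflammatory signals in macrophages, lymphocytes and other cells. It had 1571.5 counts (0.874%) with acetaminophen and 293 (0.0350%) in control, 24.99-fold higher (22.1 to 28.5). It was the 1 hairpin of 6 on the inflammation list that reached the minimum. mir-146a, a feedback inhibitor of NF-kappa-B signalling, had 40 counts with acetaminophen and 27.3 in control, and mir-146b 41 with acetaminophen and 25.8 in control. mir-380 of the imprinted Dlk1-Dio3 cluster had 3843 counts (2.14%) with acetaminophen and 1007 (0.120%) in control, 17.8-fold higher (16.6 to 19.1). The other 50 hairpins of that cluster found in the table stayed under the minimum. mir-489, in an intron of the calcitonin receptor gene Calcr, had 486.5 counts with acetaminophen and 61.5 in control, 36.9-fold higher (28.0 to 48.4).
miR-155-5p: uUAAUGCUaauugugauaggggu
miR-380-5p: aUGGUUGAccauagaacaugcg
miR-489-3p: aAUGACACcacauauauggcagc
miR-130a-3p: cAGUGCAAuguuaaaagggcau
These strands, with the seed in capitals, were higher by mature counts too. miR-155-5p had 46 mature counts with acetaminophen and 2 in control, a ratio of 115 (30.2 to 981). miR-380-5p had 57 with acetaminophen and 19 in control, 15.1-fold higher (8.82 to 26.8), and miR-130a-3p 104 with acetaminophen and 85 in control, 6.14-fold higher (4.56 to 8.27). miR-489-3p had 56 with acetaminophen and 29 in control, 9.69-fold higher (6.08 to 15.7), an interval below that of its hairpin.

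The identity of the cells was read from marker hairpins. mir-122 took 5.16% with acetaminophen and 4.999% in control, a ratio of 1.03 (1.01 to 1.06). None of the 7 hepatocyte-enriched hairpins was called, with a median log2 share ratio of 0.51 that ran from -0.21 without the mir-21a read group in the totals to 0.92 with median-of-ratios scaling. mir-192 and mir-215 lay just under the limit and passed it under 3 of the 5 other scalings. mir-192 took 7.11% with acetaminophen and 3.70% in control, mir-215, with which it shares reads, 6.89% with acetaminophen and 3.58% in control, and mir-194-2 1.26% with acetaminophen and 0.900% in control. The summed share of the list was 21.99% with acetaminophen and 14.3% in control. Liver held more mir-122, with 15.6% after acetaminophen and 9.56% in untreated mice.

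Of the marker hairpins of other cells, 4 reached the minimum and were called, mir-126a and mir-342 higher and mir-31 and mir-203 lower. mir-126a, the endothelial miRNA of the Egfl7 gene, had 1764 counts (0.981%) with acetaminophen and 2185 (0.261%) in control, 3.77-fold higher (3.54 to 4.01). The 4 leukocyte hairpins found summed to 0.0834% with acetaminophen and 0.0286% in control, most of it mir-342. mir-223 had 17 counts with acetaminophen and 34 in control, and mir-150 had 1 with acetaminophen and 2 in control. The 7 stellate and mesenchymal hairpins summed to 0.171% with acetaminophen and 0.0208% in control, though none reached the minimum alone. Summed as a read group, mir-145a and mir-145b did, with 170 counts with acetaminophen and 118 in control, 6.72-fold higher (5.28 to 8.57). The 4 erythroid hairpins summed to 0.00834% with acetaminophen and 0.00179% in control, with 5.5 counts of mir-451a with acetaminophen and 6 in control. The 8 epithelial and biliary hairpins summed to 0.267% with acetaminophen and 2.29% in control, most of it mir-31. mir-200c had 43.2 counts with acetaminophen and 5.67 in control, and mir-205 had 0 in both columns. The part of these other cells in the results was not tested, and in bulk samples fewer cells of a type and less RNA per cell cannot be told apart.

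**Figure D3:**
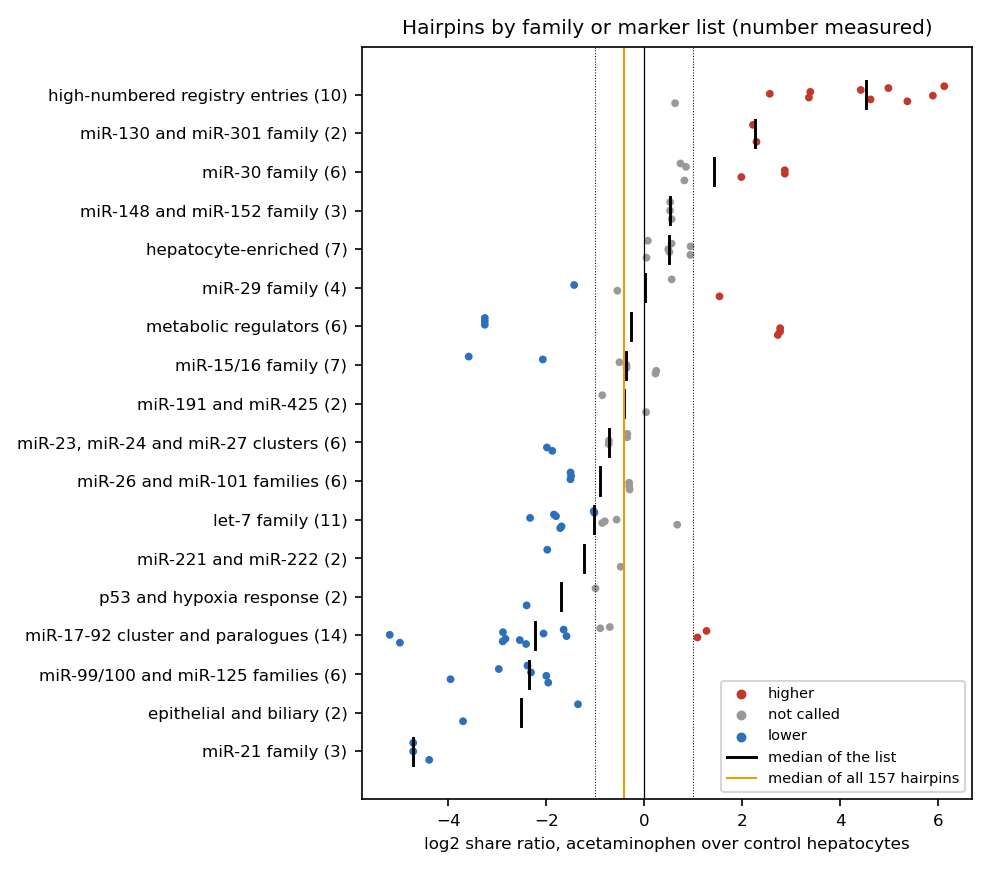
Log2 share ratio, acetaminophen over control (x axis), of each measured hairpin in the families and marker lists with at least 2 measured hairpins (y axis, number measured in brackets), with the median of each list in black and that of all 157 hairpins, -0.41, in orange. By their medians the miR-21, epithelial, miR-99/100 and miR-125, miR-17-92, p53 and hypoxia, miR-221 and miR-222 and let-7 lists lie left of the 2-fold line, and the miR-30, miR-130 and high-numbered registry lists right of it.

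The 10 highest share ratios among called hairpins ran from 31.6 to 3260. Of these 10, only mir-1948 and mir-2137 passed the minimum in both columns. The others, mir-489 among them, passed with acetaminophen alone, which itself favours a higher call. mir-3066 had 2096 counts (1.17%) with acetaminophen and 3 (0.000358%) in control, a ratio of 3260 with a counting interval of 1114 to 15819. mir-615, in an intron of Hoxc5, had 143 counts with acetaminophen and 2 in control, a ratio of 334 (90.7 to 2781). mir-1224 had 660 counts with acetaminophen and 14 in control, 220-fold higher (130.2 to 404.5), and mir-6949 had 1104 with acetaminophen and 74 in control, 69.6-fold higher (55.0 to 89.3). mir-6238 had 127 counts with acetaminophen and 10 in control, 59.3-fold higher (31.2 to 126.5), mir-5112 had 138.6 with acetaminophen and 15.7 in control, 41.3-fold higher (24.1 to 72.9), and mir-6538 had 193 with acetaminophen and 28.5 in control, 31.6-fold higher (21.6 to 49.7). mir-3066, mir-615, mir-1224, mir-6949, mir-5112 and mir-6538 had 0 counts in the mature table in both columns, and miR-6238 had 6 with acetaminophen and 2 in control. mir-1948 had 7124 counts (3.96%) with acetaminophen and 612 (0.0730%) in control, and 0 mature counts with acetaminophen and 2 in control. The hairpins of mir-3066, mir-1224 and mir-6949 are shown because their reads were not counted to either mature arm, which the capitals mark, and that of mir-2137 as one with mature counts.
mir-3066: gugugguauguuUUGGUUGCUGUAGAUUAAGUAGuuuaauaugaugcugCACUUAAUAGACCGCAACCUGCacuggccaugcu
mir-1224: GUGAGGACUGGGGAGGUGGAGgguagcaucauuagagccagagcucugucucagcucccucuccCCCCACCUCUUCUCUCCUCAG
mir-6949: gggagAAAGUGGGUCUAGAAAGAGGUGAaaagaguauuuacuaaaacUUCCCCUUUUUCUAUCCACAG
mir-2137: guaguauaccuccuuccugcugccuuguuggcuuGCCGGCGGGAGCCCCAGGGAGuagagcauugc
By RefSeq coordinates (GRCm38.p6), mir-3066 lies at chr12:17355392-17355474 in an intron of Nol10, mir-1224 at chr16:20604452-20604536 in an intron of Vwa5b2, mir-6949 at chr14:56082401-56082468 in an intron of Mcpt8 and mir-2137 at chrX:72992079-72992144 in an intron of Zfp185.

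mir-2137 differed from these in its mature reads. Its hairpin had 13077.5 counts (7.28%) with acetaminophen and 1376 (0.164%) in control, 44.3-fold higher (41.9 to 46.9), and miR-2137 had 237 mature counts with acetaminophen and 27 in control, 44.0-fold higher (29.5 to 68.2). Of hairpins with a registry number of 5000 or more, mostly low-abundance entries of later sequencing surveys, 10 of 473 reached the minimum. Of these, 9 were higher and 0 lower, with a median log2 share ratio of 4.52, beside 26.8% higher and a median of -0.41 over all 157. Of the 9, mir-5112, mir-5121, mir-6238, mir-6538 and mir-6949 passed the minimum with acetaminophen alone, which itself favours a higher call. All 473 together took 10.4% of the acetaminophen counts and 0.802% of the control counts. mir-6481 alone had 10681 counts (5.94%) with acetaminophen and 2332 (0.278%) in control, 21.4-fold higher (20.4 to 22.4), with 0 mature counts in both columns.
mir-6481: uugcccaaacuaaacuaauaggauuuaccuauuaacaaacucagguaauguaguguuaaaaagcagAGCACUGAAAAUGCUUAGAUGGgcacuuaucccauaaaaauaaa
mir-5121: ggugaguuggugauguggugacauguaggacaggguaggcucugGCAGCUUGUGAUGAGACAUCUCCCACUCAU
In these hairpins the capitals mark the longest run shared with another small RNA gene of the annotation. The mir-6481 hairpin, at chr3:99199344-99199453 between genes, shares 22 bases with mt-Tf, the mitochondrial transfer RNA for phenylalanine. mir-5121, at chr7:45126918-45126991 in Rpl13a and chosen after its values were seen, shares 30 bases with the small nucleolar RNA Snord33. It had 121 hairpin counts with acetaminophen and 23 in control, 24.5-fold higher (15.6 to 40.2), but 7 mature counts (0.131%) with acetaminophen and 51 (0.191%) in control. A run of 16 or more bases shared with a small RNA gene of the annotation was found in 4 of 34 higher, 1 of 53 lower and 4 of 51 hairpins not called that had a sequence. For mir-3068, the 1 lower hairpin, and mir-1839, not called, the only such gene bears the hairpin's own symbol. The longest run of mir-3535, higher, was also with a gene of its own symbol. Where the other gene is a separate one, reads of such a run cannot be assigned to the hairpin or to that gene from these tables.

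By mature counts, 100 strands had 10 or more counts in either column, and 54% were called, 24 higher (24%) and 30 lower (30%). Of the 42 hairpins called higher, 18 had a mature strand above that minimum, and 16 of these were higher by mature counts too. The other 2 were mir-5121 and mir-3535, whose strand had 0 mature counts with acetaminophen and 15 in control, too few at this depth for a direction. Another 14 had some mature counts under the minimum, and 10 had 0 in both columns. Those 10 hairpins took 9.54% of the hairpin counts with acetaminophen and 0.389% in control. Of the 60 hairpins called lower, 53 had a measured mature strand, of which 30 were lower, 0 higher and 23 not called. Only 3 of the 60, mir-3965, mir-101b and mir-101c, had 0 mature counts in both columns, and each belongs to a read group whose other hairpins had some. By read group, 10 of the 35 higher groups and 0 of the 30 lower groups had 0 mature counts. The median was 1.93 mature counts per 100 hairpin counts in the higher groups, 2.54 in the lower and 2.92 in those not called.

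**Figure D4:**
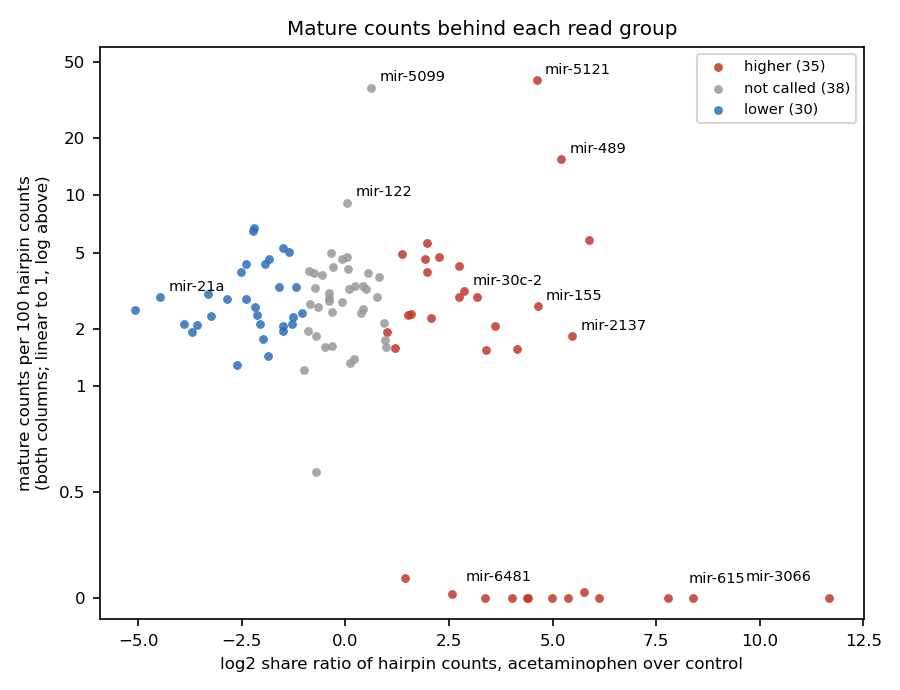
Mature counts per 100 hairpin counts over both columns (y axis, linear to 1 and log above) against the log2 share ratio of hairpin counts, acetaminophen over control (x axis), for the 103 read groups, coloured by call. The points on the floor at 0, all with a positive ratio, are the 10 higher groups without mature counts, and mir-155, mir-30c-2 and mir-2137 lie in the band of the other groups.

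Mature counts also crossed the limit where hairpin counts did not. miR-192-5p took 6.06% with acetaminophen and 2.44% in control, 2.49-fold higher (2.17 to 2.84), and its hairpin 7.11% with acetaminophen and 3.70% in control, just under 2-fold. For miR-122-5p the mature shares were 17.3% with acetaminophen and 14.1% in control, a ratio of 1.23 (1.14 to 1.32). Arm use could be compared for 23 hairpins with 20 or more counts of both arms together in each column. The dominant arm was the same in both columns for all 23. The exact binomial 95% intervals of the 5p share were apart for 1, miR-126a, whose 5p arm made up 26.6% of its counts with acetaminophen (18.01 to 36.7) and 4.49% in control (1.24 to 11.1), from 25 counts of that arm with acetaminophen and 4 in control.

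Hairpins that lie within 10 kb on the same strand are often cut from 1 transcript. Of the 157 hairpins, 156 were placed in the GENCODE annotation and 56 fell into 22 such clusters. In 3 clusters all measured hairpins were called the same way, all of them lower: mir-99b with let-7e and mir-125a, mir-100 with let-7a-2, and mir-503 with mir-322. Of these hairpins only let-7a-2 passed the minimum in both columns. The others passed in control alone, which itself favours a lower call. In 6 none was called. In 2, the miR-17-92 cluster and its X chromosome paralogue, 1 hairpin was higher, mir-92a-1 or mir-92a-2, and the others lower. Hairpins of these 2 clusters share read groups, so they are not separate signals. Among the remaining clusters mir-362 and mir-501 were widest apart, with log2 share ratios of 2.07 and -0.39, where mir-501 rests on 17 counts with acetaminophen and 104 in control. Of the 42 higher hairpins 17 lay in introns, 9 in exons of other genes and 15 between genes, and of the 60 lower ones 24 lay in introns, 18 in exons and 18 between genes. Over all 157 hairpins 63 lay in introns, 46 in exons and 47 between genes.

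In the hepatocyte column with acetaminophen and G-CSF, which shares its control with the acetaminophen column, 124 of the 157 hairpins had a share within 2-fold of that with acetaminophen alone, 8 were 2-fold or more higher and 25 lower. Of the 42 hairpins called higher 35 lay within 2-fold, of the 60 called lower 48 and of the 55 not called 41. mir-21a stood at 0.731% there, beside 0.679% with acetaminophen and 14.2% in control. mir-2137 stood at 6.91%, beside 7.28% with acetaminophen and 0.164% in control. The mir-30c-2 group was higher still, at 29.5%, beside 13.9% with acetaminophen and 1.91% in control, and mir-489 lower, at 0.0488%, beside 0.271% with acetaminophen and 0.00733% in control. mir-194-2 stood at 0.267%, beside 1.26% with acetaminophen and 0.900% in control. The column held 139361 hairpin counts.

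In liver, which has its own control, 220 hairpins reached the minimum between acetaminophen and untreated mice, and 52.7% were called, 45 higher (20.5%) and 71 lower (32.3%). The acetaminophen liver column was the shallower, with 111316 hairpin counts and 5.65 hairpin counts per mature count, against 26.5 per mature count in untreated mice. The 4 erythroid hairpins took 9.98% of it and 0.299% of the untreated column, and their part in the liver values was not tested. As 145 read groups, 59.3% were called, 33 higher (22.8%) and 53 lower (36.6%). Of the 35 read groups higher in hepatocytes, 13 were higher in liver, which is 37.1% of the hepatocyte calls and 39.4% of the 33 in liver. Of the 30 lower in hepatocytes, 12 were lower in liver, 40% of the hepatocyte calls and 22.6% of the 53 in liver. A further 8 groups were higher in hepatocytes and lower in liver, and 4 the reverse. mir-2137 was higher in both, with liver shares of 0.647% after acetaminophen and 0.0200% in untreated mice, and mir-31 lower in both, with 0.717% after acetaminophen and 3.21% in untreated mice. mir-21a went the opposite way in liver, with 1.69% after acetaminophen and 0.466% in untreated mice. mir-3066 had 201 counts (0.181%) in liver after acetaminophen and 20 (0.00153%) in untreated mice. The untreated liver share of mir-21a was 0.466% and the untreated hepatocyte share 14.2%. In exosomes released by hepatocytes the columns held 167 hairpin counts with acetaminophen and 911 in control, of which mir-2137 had 44 with acetaminophen and 21 in control.

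**Figure D5:**
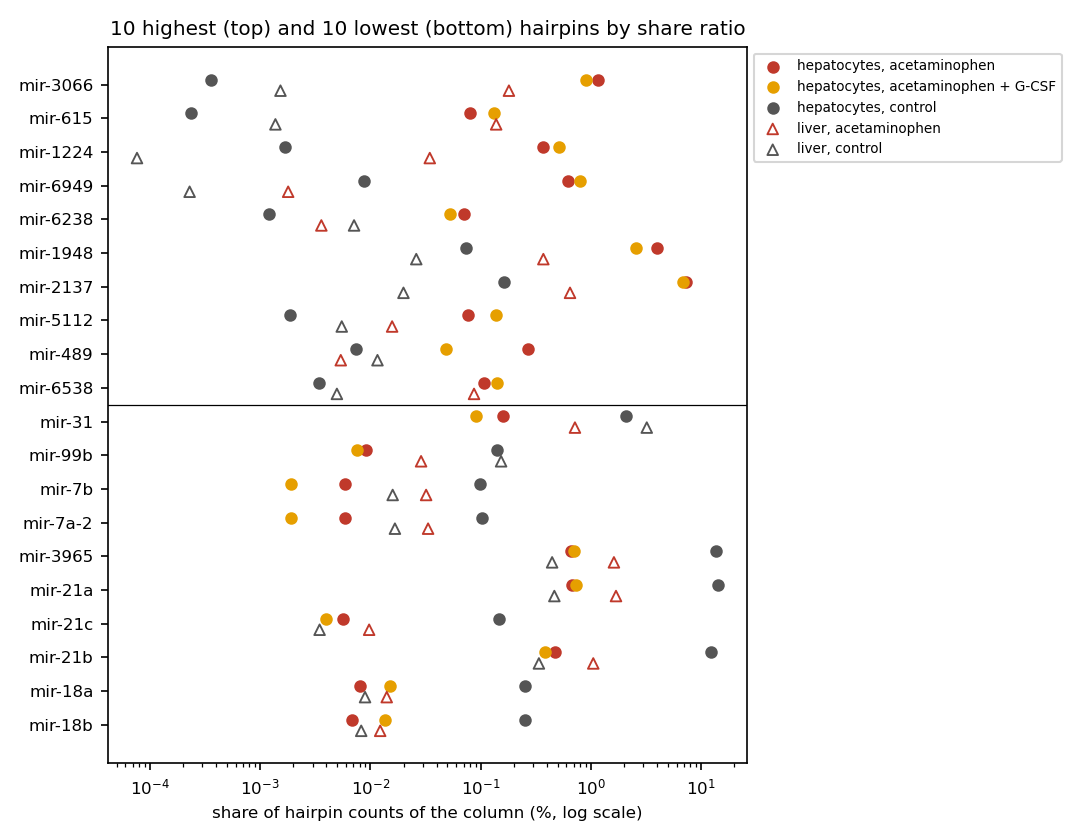
Share of hairpin counts (x axis, %, log scale) of the 10 hairpins with the highest share ratio in hepatocytes (top) and the 10 with the lowest (bottom), in the 3 hepatocyte columns (circles) and 2 liver columns (triangles). The G-CSF circles lie near those of acetaminophen alone for most of them, and for mir-21a the liver triangle after acetaminophen, at 1.69%, lies right of that in untreated mice, at 0.466%.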

How the data were processed

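The deposited values are expected counts, that is estimated counts that need not be whole, which the authors made per hairpin and per mature miRNA without scaling to depth. The authors had combined the PGM and Proton libraries of each condition into 1 column, per the file headers. Per the labels' protocols, a Norgen kit gave the total RNA, and Ion Total RNA-Seq reagents the small RNA libraries. For the aligner, annotation, genome build and the division of reads among similar hairpins, no statement was found, and they count as not given in the sources used here.

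Counts were turned into shares of the column total, and ratios are acetaminophen over control, with exact conditional (Clopper-Pearson) 95% intervals on rounded counts. A count that rounded to 0 was set to a floor of 3 counts per column. Read groups summed hairpins whose mature strands differ by 2 or fewer of their first 18 bases, copies of 1 name, and hairpins of 1 registry number with counts within 25% in both columns. Interval coverage and recovery of known changes were tested on simulated data. Alternatives used TMM factors from edgeR 4.0.16 and the other scalings and minimums listed at the end.

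Named hairpins were mir-122, the 10 highest and 10 lowest ratios among called hairpins, the 10 most abundant called in each direction, and up to 4 members of each list by share. Others named were chosen after their values were seen. The members and the lists were chosen with earlier results of these data known. Lists with no hairpin at the minimum were the miR-181 family and the erythroid, stellate, striated muscle and neural lists. Summed as read groups, mir-145a with mir-145b, the miR-181 hairpins and mir-128-1 with mir-128-2 reached it. Only the mir-145a group was called, as higher. The lists not described by name are the miR-15/16 family (7 measured, 0 higher and 2 lower, both described), miR-148 and miR-152 (3, 0 and 0), miR-191 and miR-425 (2, 0 and 0) and the Sfmbt2-type repeats (1 higher, mir-669e, of 81). The miR-15/16 median of -0.36 turned to 0.04 and the miR-148 median of 0.53 to -0.19 with the scaling.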

Additional observations from a re-analysis of the deposited data

Results flagged for a closer look

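Of the 42 hairpins called higher in cultured hepatocytes 11 were called lower in liver, and of the 60 called lower 10 were higher in liver. The following 12 are those of them that are among the named hairpins. The difference between the materials itself was not tested, since each has 1 column per condition. In hepatocytes the log2 share ratios, acetaminophen over control, were -4.39 for mir-21a, -4.71 for mir-21b and -4.36 for mir-3965, which share reads and are 1 signal, -4.07 for mir-7b and -1.43 for mir-29b-2. In liver the same quantity was 1.86 for mir-21a, 1.64 for mir-21b, 1.86 for mir-3965, 1.01 for mir-7b and 2.32 for mir-29b-2.

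Among these named hairpins, mir-378a, mir-378b and mir-378c, another shared signal, were higher in hepatocytes and lower in liver. Their log2 share ratios were 2.73, 2.77 and 2.77 in hepatocytes and -1.51, -1.55 and -1.55 in liver. mir-130a and mir-130c had 2.29 and 2.22 in hepatocytes and -1.06 for both in liver. mir-342 had 1.58 in hepatocytes and -2.38 in liver, and mir-669e 1.44 in hepatocytes and -1.60 in liver.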

How the results depend on the processing

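The count of hairpins called higher, 42, moved with the minimum, to 100 at 10 counts, 162 with no minimum and 21 at 1000 counts, because fewer or more hairpins were tested. The count called lower, 60, became 30 when hairpins were summed to read groups, an alternative chosen after seeing the data. Other alternatives kept both counts within 1.5 times. The scalings gave 33 to 51 higher and 53 to 89 lower, the 3-fold limit gave 33 and 47 and the 1.5-fold limit 51 and 72. A minimum share equal to 100 counts of the acetaminophen column, also chosen after seeing the data as was the total without the mir-21a read group, gave 40 and 53. The mature counts of 24 higher and 30 lower ran from 21 to 29 and from 30 to 32. The 81 named hairpins had 779 values under alternatives, of which 340 moved beyond the counting interval and 439 did not. The 439 include every value under another minimum, which leaves a share ratio as it is, so they are no measure of stability. None of the named hairpins that were called changed direction, which only the mature counts could have brought about. Of the 23 not called, 11 changed sign under some alternative. The log2 share ratio of mir-122, 0.05, ran from -0.67 to 0.45.

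No paired analysis was possible because the deposited columns combine both instruments, and leaving out a library was not run for the same reason. Depth limits the acetaminophen column most, where a count of 0 allows a share of up to 0.00167% of hairpin counts and 0.0563% of mature counts, against 0.000358% and 0.0112% in control.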
